A study of Mus musculus with 7 samples.

Results

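The cytochrome P450 genes of the mouse were examined for the histone mark H3K4me1 in single zygotes. Members were the RefSeq protein-coding genes with a symbol made of Cyp, a family number, a subfamily letter and a gene number, plus Cyp51, which the choice of genes names and the symbol pattern does not match. There were 94 members, 93 by the pattern, of 21887 protein-coding genes on chromosomes 1 to 19, X and Y, and all 94 are autosomal. Of these, 63 lie in 7 runs of neighbouring genes of families 2, 3 and 4, called clustered below. A further 15 were single-copy steroid, sterol and vitamin D genes, 9 belong to families 2 to 4 but lie in no run, and the remaining 7 were 3 Cyp1 genes, 3 Cyp26 genes and Cyp20a1.

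P450 enzymes hold a haem group and insert an oxygen atom into fat-soluble molecules. The families that sit in clusters mainly clear drugs, plant toxins, fatty acids and eicosanoids and are best known from liver, gut and kidney. The single-copy enzymes carry out fixed steps in making or clearing steroid hormones, cholesterol, bile acids and vitamin D, and the Cyp26 enzymes break down retinoic acid. H3K4me1, monomethylated lysine 4 of histone H3, is known as a mark of enhancers and of the flanks of promoters.

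The study read a histone mark and the transcriptome from the same single zygote. The mark was read by CUT&Tag, in which an antibody guides the Tn5 transposase so that sequenced fragments lie at marked chromatin. Of 7 samples, 2 were batches with an antibody against H3K4me1, and these are described here; the 2 H3K27me3 samples and the 3 transcriptome samples were not used here, so no transcript level stands beside any value. Zygotes came from females given 5 IU of PMSG, a gonadotropin that acts like follicle-stimulating hormone. The females were given 5 IU of hCG, which triggers ovulation, 46 to 48 h after it. The zygotes were collected at 23 after hCG, with no unit stated, and stripped of cumulus cells and zona pellucida. The treatment is labelled as none, each batch came from 1 mouse, and no strain, genotype or age of the H3K4me1 mice is given in their labels.

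The fragment table pooled both batches, and nothing in the labels ties a library to a batch. It was therefore treated as 1 sample, with no test between samples and no p-value. Of 16 zygote libraries, 14 held at least 5000 fragments and were kept, with 7106 to 197312 fragments each, a median of 96240 and 1404305 in all. Library names carry the number 4 (3 kept) or 5 (11 kept), and a library is written below as, for example, 5-4. The level of a region is its number of fragments over the number expected from the autosomal mean of 5.62 fragments per 10 kb, so that 1 is the autosomal mean. Gene levels cover the gene with 2.5 kb on each side. All intervals are exact 95% intervals for counting error only, since the table is 1 pooled sample, and they say nothing of the spread between mice. They also take each fragment as independent, although the reads carry no molecular identifiers. A gene is called above or below 1 where its whole interval lies there. Against the label of the cells, the 10 oocyte markers summed to a level of 1.80 (1.55 to 2.07), 10 cumulus and granulosa markers to 0.809 (0.687 to 0.945) and 10 liver markers to 1.06 (0.875 to 1.28). Single cumulus and granulosa markers ran from 0.257 to 2.63, with 3 called above 1 and 2 below. Of the oocyte markers 6 were called above and 0 below, and of the liver markers 1 above and 0 below. Among all protein-coding genes 28.1% were called above and 8.6% below. H3K4me1 is not expression, and these lists do not measure how many cells of another type were present.

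The 94 P450 genes as a whole lay close to the autosomal mean and spread widely around it. Their windows summed to 1746 fragments and a level of 1.03 (0.982 to 1.08), and the median gene stood at 1.21, the same as the median of all 20665 autosomal protein-coding genes. The summed level of those genes was higher, at 1.17. Single genes ran from 0.22 at Cyp2c69 to 3.40 at Cyp2d10. Above 1 lay 17 of the 94 genes and below 1 lay 13. Among all protein-coding genes 28.1% were called above and 8.6% below, and among the autosomal ones 29.5% and 7.16%, against 18.1% and 13.8% of the members. The typical window of a member was expected to hold 14.8 fragments and that of a protein-coding gene 12.5 fragments, so the depth behind a call was similar. Fewer members were called high, and more were called low, than the background share.

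**Figure D1:**
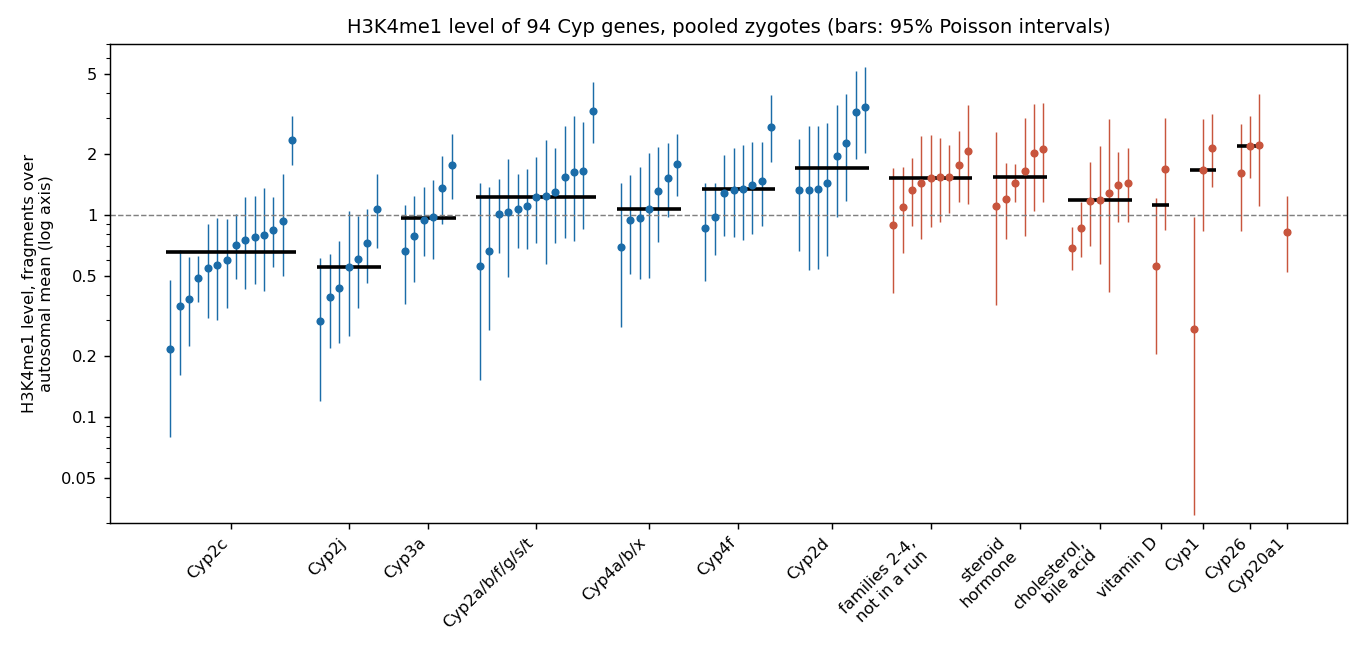
H3K4me1 level of each of the 94 genes on a log axis, ordered within each group; points are levels, vertical bars are exact 95% Poisson intervals, black lines are group medians, and the dashed line is the autosomal mean (1). Blue groups are the 7 runs of clustered genes and red groups the other members; the Cyp2c and Cyp2j genes sit lowest, with Cyp2c55 at 2.36 standing apart from the rest of its run.

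Among clustered members the low calls sat in 2 of the 7 runs. All 11 clustered genes called below 1 were Cyp2c genes (7 of 14) or Cyp2j genes (4 of 7). The median window was expected to hold 26.4 fragments in Cyp2c and 26.3 in Cyp2j, against 11.4 in the other 42 clustered genes. A low level is more readily called in a deeper window, and the part of depth in these calls was not tested. The 63 clustered genes together had a level of 0.942 (0.887 to 0.999), with 8 (12.7%) above and 11 (17.5%) below 1 (7 below without library 5-4). Without the Cyp2c and Cyp2j runs, a division made after their values were seen, the other 42 clustered genes had a level of 1.29 (1.19 to 1.39). Each of the 13 libraries of over 20000 fragments was above 1. Of these 42 genes 7 (16.7%) were above 1 and 0 below, against 28.1% and 8.6% of all protein-coding genes. By gene windows the runs ordered as Cyp2j at 0.559 (0.457 to 0.676), Cyp2c at 0.678 (0.603 to 0.760), Cyp3a at 1.05 (0.879 to 1.24), Cyp4a with Cyp4b and Cyp4x at 1.26 (1.04 to 1.52), the mixed Cyp2 run of chromosome 7 at 1.27 (1.10 to 1.46), Cyp4f at 1.33 (1.13 to 1.56) and Cyp2d at 1.99 (1.60 to 2.44). Neighbours in this order had overlapping intervals except for the steps from Cyp2c to Cyp3a and from Cyp4f to Cyp2d.

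The Cyp2c genes, whose enzymes oxidise drugs and arachidonic acid, fill 1180 kb of chromosome 19 (chr19:39006940-40187286). Over all libraries of more than 20000 fragments the gene windows ran from 0.127 in library 4-5 to 0.945 in 5-2, and all 13 were below 1. Libraries named 4 gave 0.403 (0.273 to 0.571) and libraries named 5 gave 0.738 (0.651 to 0.833), so both sets were low and their intervals did not overlap. The lowest member was Cyp2c69 at 0.22 (0.08 to 0.47). It held 6 fragments where 27.6 were expected, at most 1 in any library, and 8 of 14 libraries had 0. Cyp2c67 stood at 0.35, Cyp2c38 at 0.39 and Cyp2c39, whose annotated extent encloses Cyp2c38, at 0.49. Cyp2c70, which makes the muricholic bile acids of the mouse, had 0.78 (0.45 to 1.24).

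The exception was Cyp2c55, an arachidonic acid hydroxylase at one edge of the run, at 2.36 (1.77 to 3.08). It held 54 fragments, with 0 to 11 per library and a median of 3, and 11 of 13 libraries of over 20000 fragments were above 1. The lowest and highest genes of this run do not overlap in their intervals. Both were picked by these same levels, and the intervals make no allowance for that choice. Libraries named 4 gave Cyp2c55 2.94 (1.52 to 5.13) and those named 5 gave 2.23 (1.61 to 3.02). The 5 bins of 10 kb that hold this gene had levels of 1.60 to 2.67, while the median bin of the run had 0.534 and that of the autosomes 0.89.

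The stretch upstream of Cyp2c69 is shown as that of the gene with the lowest level. It is given 5′ to 3′ on the minus strand (chr19:39886770-39887019, GRCm38.p6, sequence from RefSeq), with CpG dinucleotides in capitals; 2 occur in 250 bases, of which 30.4% are G or C.
Cyp2c69: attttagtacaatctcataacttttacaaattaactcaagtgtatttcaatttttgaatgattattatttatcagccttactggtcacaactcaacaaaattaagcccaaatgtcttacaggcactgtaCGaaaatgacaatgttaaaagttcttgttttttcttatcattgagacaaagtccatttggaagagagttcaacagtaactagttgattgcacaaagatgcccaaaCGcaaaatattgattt

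The Cyp2j genes, which make epoxides of arachidonic acid, lie on chromosome 4 (chr4:96042660-96664171, 622 kb). Cyp2j5, known from kidney, was lowest at 0.30 (0.12 to 0.61), with 0 to 2 fragments per library and 8 of 14 libraries at 0. Cyp2j8 had 0.39 and Cyp2j6 0.44, while Cyp2j13 was highest at 1.07 (0.69 to 1.59). The gene windows were below 1 in 11 of 13 libraries, from 0.190 to 1.18, and the run as a whole was below 1 in all 13. Cyp2c and Cyp2j differed little, with a ratio of 1.21 and an interval of 0.969 to 1.53 that includes 1.

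By gene windows the Cyp2d genes were the highest of the 7 runs. The whole Cyp2d run, with the sequence between members, had 1.16 (1.03 to 1.31), below Cyp4f at 1.29 (1.16 to 1.43) with overlapping intervals. The Cyp2d genes are the mouse relatives of the human drug-metabolising enzyme CYP2D6 and lie on chromosome 15 (chr15:82370527-82794452, 424 kb). All 8 had levels over 1, from Cyp2d22 at 1.33 (0.66 to 2.38) to Cyp2d10 at 3.40 (2.02 to 5.38). Called above 1 were 3 (37.5%, against 28.1% of all protein-coding genes), namely Cyp2d10, Cyp2d12 at 3.23 (1.88 to 5.17) and Cyp2d9 at 2.26 (1.17 to 3.95). Cyp2d10 held 0 to 3 fragments per library, with a median of 1, and 10 of the 13 deeper libraries were above 1. The summed windows were above 1 in all 13, from 1.37 to 3.74. The Cyp2d to Cyp2c ratio was 2.93 (2.29 to 3.72) and was over 1 in 13 of 13 libraries. The Cyp2d genes are short, at under 10 kb each, so these levels rest on 91 fragments in all. Their fragments had a median length of 372 bp, against 322 bp over all fragments.

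The 191 bases upstream of Cyp2d10 (minus strand, chr15:82407254-82407444, GRCm38.p6, RefSeq) hold 3 CpG, in capitals, against 2 in the 250 bases upstream of Cyp2c69. G or C made up 47.6% of the Cyp2d10 stretch and 30.4% of the Cyp2c69 stretch. Over members with a promoter sequence, the median promoter had 36.0% G or C in Cyp2c, 50.3% in Cyp2j and 49.0% in Cyp2d. The part of base composition in the levels was not tested.
Cyp2d10: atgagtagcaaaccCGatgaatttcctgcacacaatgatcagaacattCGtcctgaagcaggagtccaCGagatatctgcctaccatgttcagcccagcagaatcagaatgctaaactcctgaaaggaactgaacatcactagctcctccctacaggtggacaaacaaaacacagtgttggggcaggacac

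The mixed run of Cyp2a, Cyp2b, Cyp2f, Cyp2g, Cyp2s and Cyp2t genes lies on chromosome 7 (chr7:25802469-27158564, 1356 kb). It had 1 of 13 genes called above 1, against 28.1% of all protein-coding genes. This was Cyp2s1, at the edge of the run, an enzyme of skin and other surface epithelia that the dioxin receptor induces. Its level was 3.27 (2.28 to 4.54) from 35 fragments, with 0 to 7 per library, a median of 2.5 and the most in library 4-5; 11 of 13 libraries were above 1. Libraries named 4 gave 6.81 (3.63 to 11.6) and those named 5 gave 2.5 (1.57 to 3.78), both above 1. The highest 10 kb bin of any run, at 3.56, lies in this gene. The other 12 genes ran from Cyp2a12, a liver steroid hydroxylase, at 0.56 (0.15 to 1.43) to Cyp2a5 at 1.65 (0.85 to 2.89), and none was called.

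The upstream stretch of Cyp2s1 (minus strand, chr7:25816526-25816775, GRCm38.p6, RefSeq) is shown because it is rich in CpG, unlike those of most clustered members; 15 CpG are in capitals in 250 bases.
Cyp2s1: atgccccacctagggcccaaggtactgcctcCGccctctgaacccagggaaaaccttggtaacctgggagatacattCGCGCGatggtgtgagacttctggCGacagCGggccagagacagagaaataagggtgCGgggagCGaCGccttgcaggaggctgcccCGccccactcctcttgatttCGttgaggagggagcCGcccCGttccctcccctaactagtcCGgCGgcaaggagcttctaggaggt

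Near-identical copies in this run limit what single genes can show. Cyp2b9 stood at 1.01 (0.65 to 1.50) and its neighbour Cyp2b13 at 1.07 (0.69 to 1.60). Their promoters, of 300 bases, were 99.3% identical, and how reads that match both copies were placed is not given in the sources used here. Stretches of 143 bases upstream of each gene, both on the plus strand (chr7:26173159-26173301 and chr7:26061245-26061387, GRCm38.p6, RefSeq), differ at 2 positions, which are in capitals. That of Cyp2b9 ends short of the annotated gene start at 26173350.
Cyp2b9: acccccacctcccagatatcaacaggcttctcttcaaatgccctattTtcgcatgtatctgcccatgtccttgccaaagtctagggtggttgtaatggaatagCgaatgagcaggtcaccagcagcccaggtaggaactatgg
Cyp2b13: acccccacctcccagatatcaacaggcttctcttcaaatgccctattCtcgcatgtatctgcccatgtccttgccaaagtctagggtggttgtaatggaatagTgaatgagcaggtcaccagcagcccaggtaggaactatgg
Further close pairs were Cyp2a4 and Cyp2a5 at 97.7%, Cyp3a25 and Cyp3a59 at 95.7%, Cyp3a16 and Cyp3a44 at 93.4%, and Cyp2c68 and Cyp2c69 at 91.1%. The last pair differed in level, with 0.84 (0.55 to 1.22) at Cyp2c68 and 0.22 (0.08 to 0.47) at Cyp2c69. Over the 53 clustered genes with a promoter sequence, the highest identity to another member and the level had r = -0.08 and rho = -0.02, a description across genes that share libraries and, within a run, their surroundings.

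Cyp3a enzymes oxidise steroids and many drugs. Cyp3a11, the main one of mouse liver, was highest in its run at 1.76 (1.19 to 2.52), with 0 to 7 fragments per library and a median of 2, and Cyp3a25 was lowest at 0.67 (0.36 to 1.12). In the run of fatty acid hydroxylases on chromosome 4, Cyp4x1, known from brain, was the one gene called above 1, at 1.79 (1.23 to 2.52), and Cyp4a29 was lowest at 0.70 (0.28 to 1.43). In the Cyp4f run on chromosome 17, Cyp4f14, which inactivates leukotriene B4, had 2.71 (1.82 to 3.90) from 29 fragments, with 0 to 6 per library and 5 of 14 libraries at 0. Cyp4f17 was lowest there at 0.86 (0.47 to 1.44). In each of these 3 runs 1 member was called above 1 and no member below, against 28.1% and 8.6% of all protein-coding genes. Protein-coding Cyp genes that the symbol pattern misses are not counted here and are given further below.

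**Figure D2:**
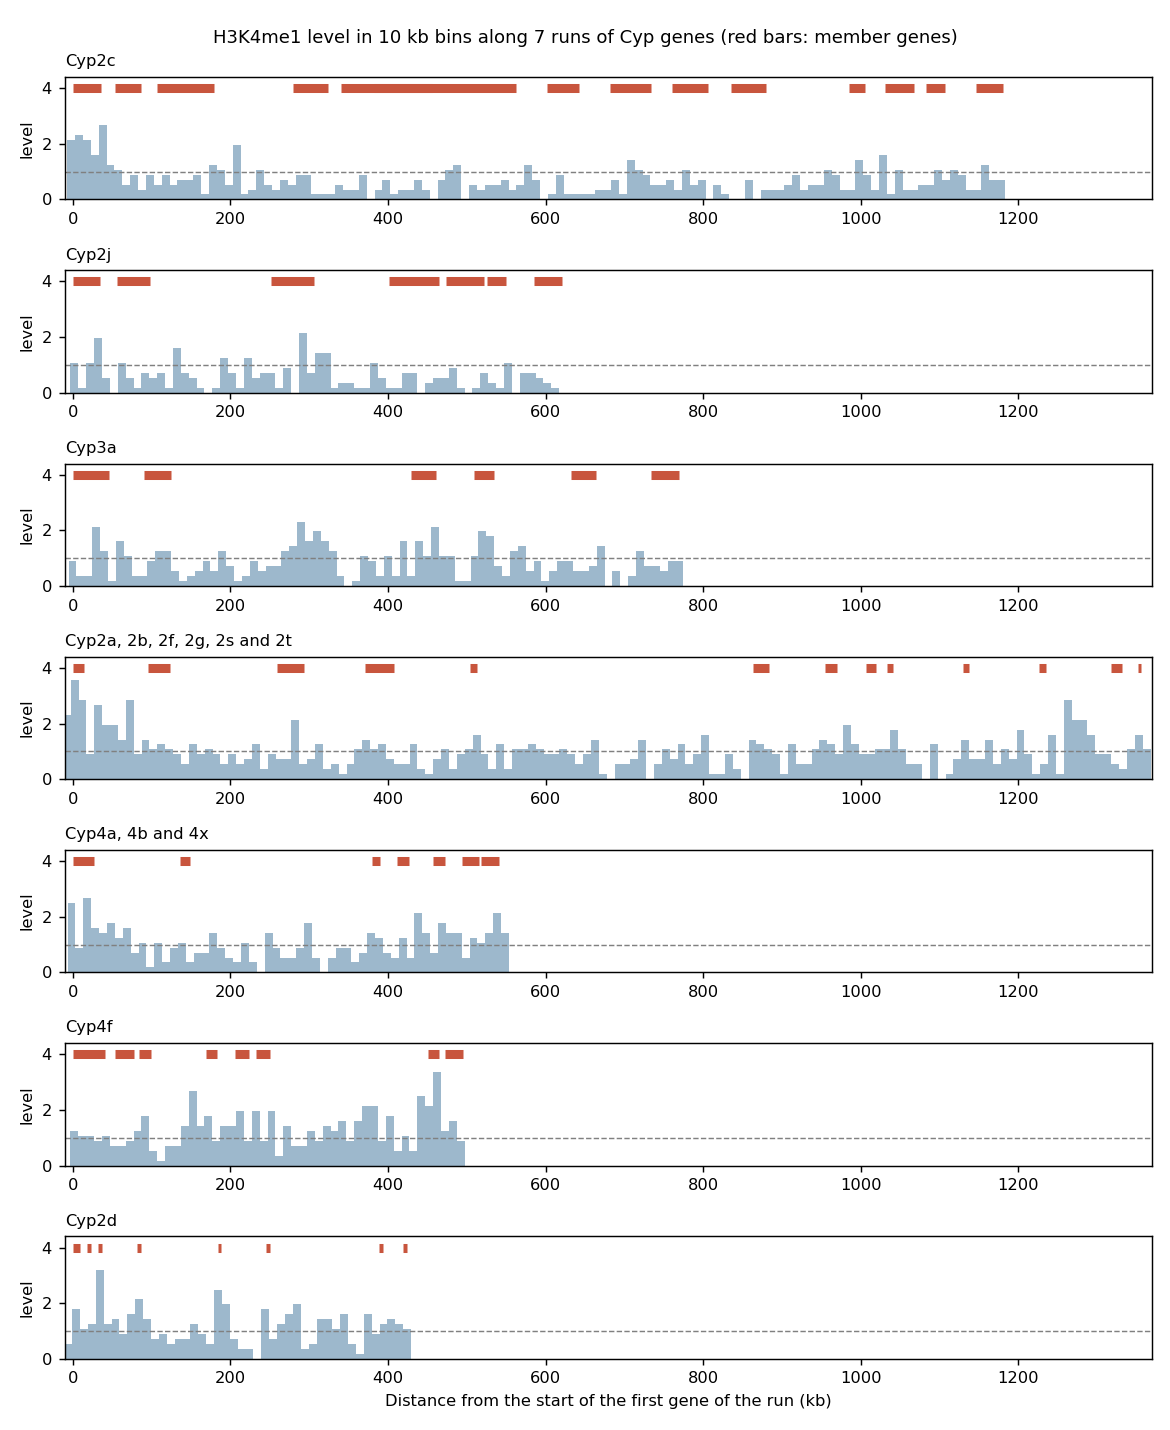
H3K4me1 level (autosomal mean 1, dashed) in 10 kb bins along each of the 7 runs, by distance in kb from the start of the first gene; red bars are member genes. Bins of 3 or more occur at Cyp2s1, Cyp4f14 and Cyp2d10, and the Cyp2c profile is high at Cyp2c55, at the left edge, and low along the rest.

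Taken from first to last gene, 6 of the 7 runs lay below the 500 kb on each side. The Cyp2c run had 0.657 (0.597 to 0.722) against 1.35 beside it, a ratio of 0.487 (0.432 to 0.548). The ratios were 0.602 (0.531 to 0.681) for Cyp3a, 0.606 (0.549 to 0.668) for the mixed Cyp2 run, 0.615 (0.539 to 0.700) for Cyp4a with Cyp4b and Cyp4x, 0.748 (0.630 to 0.886) for Cyp2j and 0.749 (0.653 to 0.858) for Cyp2d. Cyp4f was level with its sides, at 1.05 (0.926 to 1.20). The Cyp2j run differs from Cyp2c in that its sides were also low, at 0.770. Empty 10 kb bins made up 11.1% of the Cyp2j run (7 of 63) and 6.72% of the Cyp2c run (8 of 119), against 4.05% of autosomal bins, and the longest stretch without a fragment was 30.8 kb, in Cyp2c.

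Within the runs, the member gene windows and the rest of the run did not always match. Protein-coding genes, members included, numbered 19 in the mixed Cyp2 run (13 members), 10 in the Cyp4a run (7), 8 in Cyp3a (6), 12 in Cyp4f (8) and 9 in Cyp2d (8). The others fall in the rest of the run unless a member window covers them. In Cyp3a and Cyp4a they include the 5 Cyp genes that the symbol pattern misses, which summed to 0.543. In Cyp2d the windows were 2.05 times (1.58 to 2.65) as high as the rest of the run, at 1.99 against 0.968. The ratio was 1.41 (1.19 to 1.66) in the mixed Cyp2 run, 1.38 (1.09 to 1.75) in the Cyp4a run and 1.35 (1.08 to 1.67) in Cyp3a. In Cyp2c it was 1.10 (0.894 to 1.35), in Cyp4f 1.06 (0.853 to 1.31) and in Cyp2j 0.936 (0.704 to 1.25), and these 3 intervals include 1. Low values in Cyp2c and Cyp2j thus covered genes and the space between them alike. Across the 94 members the level of a gene and that of the 500 kb on each side of it had r = 0.50 and rho = 0.54, and the level and the number of genes within 500 kb had r = 0.36 and rho = 0.51; these are descriptions, since neighbouring genes share the same surroundings. The median number of genes within 500 kb was 10 for Cyp2c, 7 for Cyp2j, 25 for Cyp2d and 15 for all protein-coding genes. The part of gene density in the levels was not tested.

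**Figure D3:**
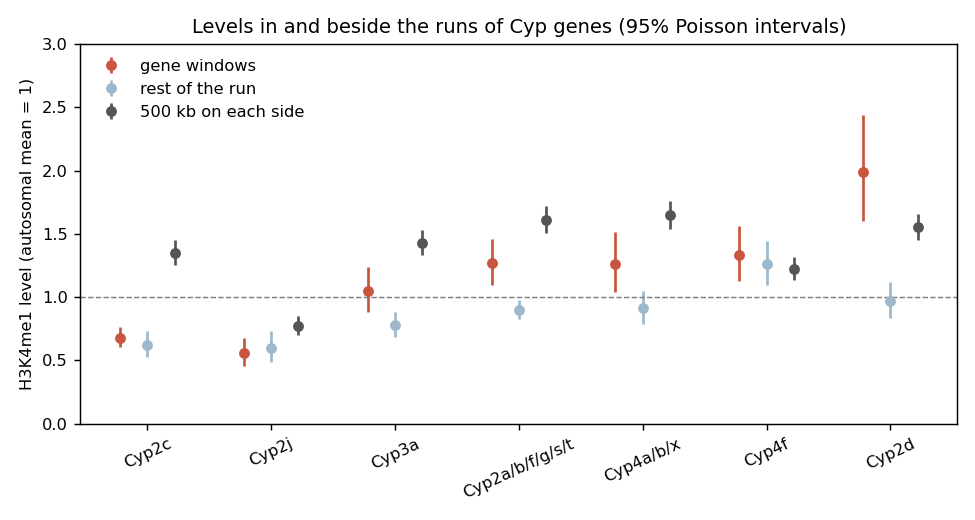
Level of the gene windows, of the rest of the run and of the 500 kb on each side for each of the 7 runs, with exact 95% Poisson intervals and the autosomal mean dashed. The grey points lie above the blue ones in 6 runs, all but Cyp4f, and the Cyp2d gene windows lie furthest above the rest of their run.

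The single-copy steroid, sterol and vitamin D genes, 15 in number, summed to 1.09 (0.980 to 1.21) with a median of 1.28. Of these, 3 (20%) were above 1 (1 without library 5-2 or without 5-5) and 1 (6.67%) was below (2 without 5-6). Among all protein-coding genes 28.1% were above and 8.6% below. The clustered genes had 0.865 times the level of the single-copy genes (0.767 to 0.977). This ratio was under 1 in 10 of 13 libraries, from 0.529 in 4-5 to 1.93 in 4-2. The ratio was 1.18 (1.04 to 1.35) without the Cyp2c and Cyp2j runs, 0.747 (0.656 to 0.852) without Cyp7b1, and 1.03 when each gene was set against the 500 kb on each side of it. Against the 9 genes of families 2 to 4 outside any run, which summed to 1.43 (1.23 to 1.67), the clustered genes stood at 0.657 times (0.559 to 0.777), under 1 in 10 of 13 libraries. Of those 9, Cyp2w1 at 2.08 (1.14 to 3.49), Cyp4f18 at 1.77 (1.15 to 2.59) and Cyp4v3 at 1.54 (1.02 to 2.22) were called above 1 and none below. The share above 1 was thus 33.3% of these 9 genes, near the 28.1% of all protein-coding genes.

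Steroid hormone genes had a higher summed level than cholesterol and bile acid genes, by an amount that depended on Cyp7b1. The 6 genes of steroid hormone synthesis had 1.47 (1.25 to 1.73), with 3 (50%) above and 0 below 1. The 3 include the side-by-side pair Cyp11b1 and Cyp11b2. The 7 cholesterol and bile acid genes had 0.914 (0.790 to 1.05), with 0 above and 1 (14.3%) below. Among all protein-coding genes 28.1% were called above and 8.6% below. The ratio of the steroid hormone to the sterol level was 1.61 (1.29 to 2.00) and was over 1 in 11 of 13 libraries. In the libraries named 4 it was 1.24 (0.695 to 2.15), which includes 1. Cyp7b1, with 99.5 expected fragments, is the longest window of the sterol group. Without it the sterol group had 1.11 and the ratio was 1.32 (1.04 to 1.69), over 1 in 10 of 13 libraries.

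Cyp19a1, the aromatase that makes oestrogen, was the best measured of the steroid genes. It held 87 fragments, 0 to 12 per library with a median of 5.5, for a level of 1.44 (1.16 to 1.78), and 11 of 13 libraries were above 1. Cyp11b1 and Cyp11b2, the side-by-side pair for the last steps to corticosterone and aldosterone, had 2.12 (1.16 to 3.56) and 2.01 (1.04 to 3.51). Cyp17a1, on the way to androgens, had 1.64 (0.79 to 3.02), Cyp11a1, which cuts the cholesterol side chain in the first step, 1.20 (0.76 to 1.81), and Cyp21a1, the steroid hydroxylase of the adrenal, 1.10 (0.36 to 2.57); none of these 3 was called, and Cyp21a1 had 0.70 without library 5-8 and 0.77 without 5-4.

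Among the sterol genes, Cyp51, the lanosterol demethylase of cholesterol synthesis, had 1.16 (0.70 to 1.82). Cyp7a1, the rate-limiting enzyme of bile acid synthesis, had 1.18 (0.57 to 2.18), Cyp8b1, which sets the cholic acid share, 1.28 (0.42 to 2.99) but 0.595 without library 5-4, and Cyp27a1, which oxidises the sterol side chain, 1.44 (0.92 to 2.14). Cyp46a1, the cholesterol hydroxylase of brain, had 1.40 (0.92 to 2.06), and Cyp39a1, an oxysterol hydroxylase, 0.86 (0.62 to 1.16). The one gene called below 1 was Cyp7b1, another oxysterol hydroxylase, at 0.68 (0.53 to 0.87) from 68 fragments. It had 0 to 14 fragments per library with a median of 3.5, and 10 of 13 libraries were below 1. Libraries named 4 gave it 1.24 (0.78 to 1.88) and libraries named 5 gave 0.56 (0.41 to 0.75), which do not overlap, and the 500 kb on each side had 0.68. The low value of the gene was thus seen in the libraries named 5. In the pool the surroundings had a similar level, but they were not split by library name. Of the vitamin D pair, Cyp27b1, which activates the vitamin, had 1.68 (0.84 to 3.01), and 1.04 without library 5-6, and Cyp24a1, which clears it, 0.56 (0.20 to 1.21).

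**Figure D4:**
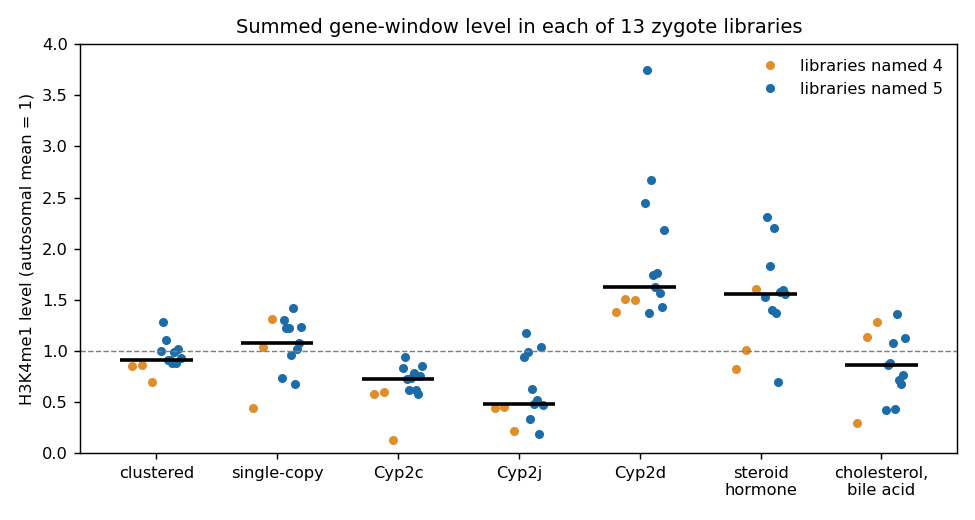
Summed gene-window level of 7 groups in each of the 13 libraries of over 20000 fragments, libraries named 4 in orange and those named 5 in blue; the black line is the median over libraries and the dashed line the autosomal mean. All 13 libraries lie below 1 for Cyp2c and above 1 for Cyp2d, while the single-copy and sterol groups scatter around 1.

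The 3 Cyp26 genes, which clear retinoic acid, together had 2.07 (1.57 to 2.69). Cyp26b1 had 2.20 (1.52 to 3.07), with 0 to 7 fragments per library, and 10 of 13 libraries were above 1. Cyp26a1 had 2.22 (1.11 to 3.98) and Cyp26c1, whose window overlaps that of Cyp26a1, 1.62 (0.84 to 2.82). These levels came from the libraries named 5, in which the group had 2.43 (1.83 to 3.17), against 0.408 (0.049 to 1.47) in those named 4, and the intervals do not overlap. In the libraries named 4, Cyp26a1 and Cyp26c1 held 0 fragments, where 3 fragments would be a level of 3.40 for Cyp26a1 and 2.27 for Cyp26c1, so each gene alone is too thinly covered there to show a difference. The bases upstream of Cyp26a1 (plus strand, chr19:37697558-37697737, GRCm38.p6, RefSeq) are shown as the most CpG-rich of the stretches printed here, with 18 CpG, in capitals, in 180 bases.
Cyp26a1: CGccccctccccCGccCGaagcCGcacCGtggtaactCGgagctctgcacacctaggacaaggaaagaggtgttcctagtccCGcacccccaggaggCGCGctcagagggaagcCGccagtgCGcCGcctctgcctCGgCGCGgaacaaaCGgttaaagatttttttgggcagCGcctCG

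The Cyp1 genes, the classic targets of the dioxin receptor, were unequal. Cyp1a1 had 2.13 (1.38 to 3.14) from 25 fragments, with 0 to 6 per library, and 10 of 13 libraries above 1. Cyp1a2, whose window overlaps that of Cyp1a1, had 1.67 (0.83 to 2.99), and 1.07 without 5-11, the shallowest library, which held 4 of its 11 fragments. Cyp1b1 held 2 fragments in 2 of 14 libraries, a level of 0.27 (0.03 to 0.98), although the 500 kb on each side had 1.16; without library 4-5 or without 5-5, which held 1 fragment each, it was 0.15. Cyp20a1, an enzyme with no settled substrate, had 0.82 (0.52 to 1.23).

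Genes that work with P450 enzymes or regulate them stood higher than the P450 genes. The 37 partner and regulator genes had 1.39 (1.32 to 1.47), with 16 (43.2%) above and 0 below 1, against 28.1% and 8.6% of all protein-coding genes. Their windows were deeper, with a median of 18.8 expected fragments, 34.3 for the receptors, against 12.5, and the part of depth in these calls was not tested. Called above 1 were 2 of 9 redox and haem genes, 7 of 16 receptors and transcription factors, 5 of 10 genes of steroid and sterol synthesis without a Cyp symbol, and both P450 enzymes without one, Tbxas1 and Ptgis. The highest were Hsd17b1, which reduces oestrone to oestradiol, at 2.60 (1.34 to 4.54), Nr1i3, the drug-sensing receptor CAR, at 2.15 (1.11 to 3.76), and Star, the cholesterol importer of mitochondria, at 2.13 (1.19 to 3.52). The lowest were the bile acid receptor Nr1h4 at 0.89 (0.64 to 1.20), Ahrr, the repressor of the dioxin receptor, at 0.80 (0.57 to 1.10), and Pgrmc1, a haem-binding partner on chromosome X, at 0.41 (0.09 to 1.21).

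Within genes, the mark was denser at the start than in the body, a comparison made after values had been seen. It covers 66 members of at least 6 kb with a RefSeq promoter, and the start is the 2 kb centred on the annotated 5′ end of the gene. For some members, such as Cyp1a1 and Cyp2j6, the RefSeq promoter lies elsewhere, inside the annotated gene, so their start windows are not at that promoter. The start had a level of 1.72 (1.44 to 2.05) and the body 0.899 (0.844 to 0.957), a ratio of 1.92 (1.58 to 2.31), over 1 in 12 of 13 libraries, from 0.595 to 2.53. For 12274 autosomal protein-coding genes the ratio was 0.924 (0.909 to 0.939), and for the 2804 of them with 0 to 5 CpG in the promoter it was 1.13 (1.09 to 1.17). Members with 0 to 5 CpG, 52 genes, had 2.04 (1.64 to 2.53) and the other 14 had 1.58 (1.04 to 2.30). Clustered members had 1.87 (1.47 to 2.37), over 1 in 11 of 13 libraries. The 6 single-copy genes had 1.19 (0.582 to 2.19), over 1 in 6 of 13, an interval that includes 1. By run, Cyp2j had 2.65 (1.22 to 5.13), from 10 fragments at the start and over 1 in 5 of 13 libraries, and Cyp2c had 0.740 (0.295 to 1.55). With 2 kb on each side in place of 1, the ratio of all members was 1.48.

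Single starts are thinly covered, with 1.12 fragments expected, and 16 of 66 had 0. The most were 10 at Cyp4f14, of which up to 4 from 1 library overlapped at 1 base, then 7 each at Cyp26b1 and Cyp26c1 and 6 each at Cyp1a1 and Cyp4v3. Without Cyp4f14 the ratio of all members was 1.81.

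**Figure D5:**
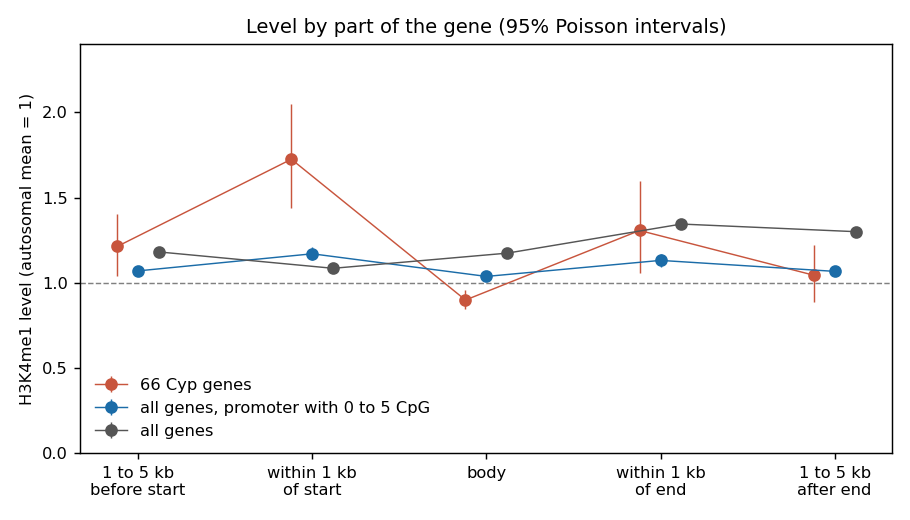
H3K4me1 level in 5 parts of the gene for 66 P450 genes, for all autosomal protein-coding genes with 0 to 5 CpG in the promoter and for all autosomal protein-coding genes, with exact 95% Poisson intervals (too narrow to see for the larger sets); lines join the parts of a set. The P450 genes reach 1.72 within 1 kb of the start and 0.899 in the body, while the other sets stay between 1 and 1.4.

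The promoters of the P450 genes were poor in CpG. RefSeq sequences of 250 bases before to 50 after the RefSeq promoter start, not the gene end used above, were matched by gene identifier for 74 of the 94 members. The median number of CpG was 3, with 2 in clustered members, against 13 in 17492 protein-coding promoters, and 79.7% of the members' promoters held 0 to 5 CpG, against 32.7% of those. The TATA box TATAAA, searched on the written strand, occurred in 22 of 74 (29.7%) and in 8.88% of all 27025 promoters. CAAAGTCCA, a site form bound by the liver factor Hnf4a, searched on both strands, occurred in 9 of 74 (12.2%) and in 0.474% of all; 6 of the 9 are Cyp2c genes, among them Cyp2c69, and those promoters share ancestry and are not independent. The core dioxin response element TNGCGTG, on both strands, occurred in 1 (Cyp2c68) and in 5.16% of all, and TCAAGGTCA, a site form of Nr5a1, in 0 of 74 and 0.407% of all. A match is a match of letters and no evidence of binding.

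P450 genes that the symbol pattern misses, and pseudogenes, were counted after values had been seen. The protein-coding Cyp3a41a, Cyp3a41b, Cyp4a12a, Cyp4a12b and Cyp4a30b, whose symbols end in a letter, summed to 0.543 (0.400 to 0.720), below 1 in 13 of 13 libraries. Of these 5 genes, Cyp4a12b was called below 1, at 0.384 (0.154 to 0.792), and none was called above. These 5 genes lie inside the Cyp3a and Cyp4a runs, whose members had 1.05 and 1.26. Pseudogenes in or beside the runs, 31 in number, had 0.974 (0.873 to 1.08). By run, the 11 Cyp2d pseudogenes had 1.65 (1.32 to 2.02), the 4 of Cyp2c 0.616 (0.449 to 0.825) and the 3 of Cyp2j 0.667 (0.479 to 0.905). Some of these windows share fragments with member windows. Counting only pseudogenes whose window overlaps no member window, 9 of Cyp2d had 1.65 (1.29 to 2.06), 2 of Cyp2c 0.598 (0.394 to 0.870) and the same 3 of Cyp2j 0.667.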

How the data were processed

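H3K4me1 CUT&Tag fragments of 2 batches of single mouse zygotes were used, per the labels pooled in 1 deposited table. The table the authors deposited lists 1 fragment per line with its library and a count, which was 1 in all 1424363 lines; 5 lines repeated another of the same library. The submitters' processing notes name the build mm10. What aligner, duplicate handling, treatment of reads that match several copies, quality filters and Tn5 shift were used is not given in the sources used here.

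Of 16 libraries, the 14 that held 5000 or more fragments on the autosomes, X and Y were used, and a fragment was placed by its midpoint. Gene positions and promoters came from RefSeq for GRCm38.p6. Expected fragments came from the autosomal mean per bp, with each chromosome taken from its first to its last fragment. Intervals were exact Poisson intervals, and ratios had exact conditional (Clopper-Pearson) intervals, both at 95%. A value of 0 was given with the limit that 3 fragments allow. Runs were 3 or more Cyp genes of the same family with at most 500 kb between neighbours. Depth limits single genes: the median window of a member was expected to hold 14.8 fragments. Python 3.11.15, numpy 2.4.6, pandas 2.3.3, scipy 1.17.1, matplotlib 3.10.9 and Biopython 1.88 were used, and the counting was tested on simulated data.

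The genes named by rule were all steroid, sterol, vitamin D, Cyp1 and Cyp26 genes and Cyp20a1, the highest and lowest member of each run, and the 3 highest and 3 lowest partner genes; any other named gene was chosen with its value in view. The members and lists were chosen with earlier results of these data known. Promoter identity took the place of the planned protein identity, as protein sequences were not used here. Alternatives were other flanks, placements, libraries, weights, a local reference, thinning of stacked fragments and a length limit; those on genes and on the start window were added after the data were seen.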

Additional observations from a re-analysis of the deposited data

How the results depend on the processing

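Counting settings (flanks, overlap, a depth of 20000, thinning of stacked fragments, a length limit of 1000 bp) kept the levels and ratios of the groups and runs; the count of single-copy genes above 1 was 1 with 1 kb flanks. The choice of libraries and of the reference moved more, and the cause was not tested.

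With only the libraries named 4, the clustered level was 0.792, with 5 genes above and 3 below 1, and no single-copy gene (0) was above 1. Cyp2c had 0.404 and Cyp2j 0.430 over the whole run, Cyp2d turned to 0.977 and Cyp3a to 1.07, and Cyp7b1 turned to 1.24, Cyp26b1 to 0.726, Cyp11b2 to 0.940 and Cyp26a1 and Hsd17b1 to 0; start over body was 1.52. With only those named 5, 7 clustered genes were below and 5 single-copy genes above 1. With libraries weighted equally, the single-copy level was 0.978 with 2 genes below 1, and start over body was 2.32.

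Against the 500 kb on each side, the single-copy level was 0.952 (0 genes above, 2 below), clustered over single-copy turned to 1.03, and Cyp7b1 to 1.01; the runs had 0.606 (mixed Cyp2), 0.487 (Cyp2c), 0.749 (Cyp2d, turned), 0.748 (Cyp2j), 0.602 (Cyp3a), 0.615 (Cyp4a, Cyp4b and Cyp4x) and 1.05 (Cyp4f). Without the Cyp2c and Cyp2j runs the clustered level turned to 1.29 and the ratio to 1.18; without Cyp7b1 the single-copy level was 1.26 and the ratio 0.747. With 2 kb on each side of the start, start over body was 1.48.

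Leaving out each library in turn (leave-one-out) gave 0.914 to 0.961 for the clustered level, 1.04 to 1.14 for the single-copy level and 0.820 to 0.910 for their ratio. Clustered genes above 1 numbered 8 to 9 and below 1 numbered 7 (without 5-4) to 13; single-copy genes above 1 numbered 1 (without 5-2 or 5-5) to 3 and below 1 numbered 1 to 2 (without 5-6). Of 588 such values for named genes, all 588 stayed within the interval of the gene. Those intervals are wide at these counts, so staying inside them says little about stability. Leaving out 1 library took Cyp8b1 from 1.28 to 0.595 and Cyp27b1 from 1.68 to 1.04.

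No paired analysis was possible because the table pools both batches and no library carries a batch number. Libraries named 4 are 3 and hold few fragments per gene, so their single-gene levels are imprecise, and the 2 mice cannot be told apart.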
